A study of Mus musculus with 12 samples.

Results

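CXC chemokine mRNAs were followed in RAW264.7 cells, an established mouse macrophage line labelled BALB/c, to learn how the splicing factor SF3a1 bears on their levels at rest and after LPS. The 7 genes were taken from the gene count table by symbol, Cxcl1, Cxcl2, Cxcl3, Cxcl9, Cxcl10, Cxcl11 and Cxcl16, out of 38215 genes in all. There were 3 cultures in each of 4 groups, which crossed a nontargeting control siRNA or SF3a1 siRNA with LPS or no LPS. All 12 cultures were nucleofected with siRNA, and 24 hours later the treated ones got LPS, the outer membrane lipid of Gram-negative bacteria sensed by TLR4, at 20 ng/ml for 4 hours. As a single cell line, these cultures give no measure of variation between animals. Each library held 12746019 to 41091887 reads counted on genes. Within each group the library of replicate 1 came from 2 sequencing runs and those of replicates 2 and 3 from 1 run. The library of SF3a1 siRNA without LPS replicate 1 stood apart. Of its reads 27.2% matched no annotated gene feature, against 17.8 to 21.6% in the other 11 libraries. Whether such reads lay in introns was not examined. Its whole group, at 20.8 to 27.2%, lay above control siRNA without LPS, at 17.8 to 19.6%. Chemokine calls that changed without this library are given with and without it. Calls of genes in the other lists are given with it alone.

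Chemokines are small secreted proteins that steer leukocyte migration, and the CXC family is named for a pair of cysteines with another residue between them. In macrophages LPS acts through TLR4 along an arm that runs through MyD88 to NF-kappaB and an arm that runs through TRIF to IRF3 and interferon beta. Interferon beta then acts back on the cells through its receptor and factors such as STAT2. Cxcl1, Cxcl2 and Cxcl3 are textbook NF-kappaB targets that draw neutrophils through the receptor Cxcr2. Cxcl9, Cxcl10 and Cxcl11 are interferon-inducible ligands of Cxcr3, a receptor of activated T cells. Cxcl16 is made as a membrane-bound protein, is shed by the proteases Adam10 and Adam17, and binds Cxcr6.

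The cultures had the markers of their label. The summed level of 8 macrophage markers was 9258 to 15016 CPM (counts-per-million of the reads on genes, scaled by edgeR's TMM method) over the 12 libraries, led by the lysozyme gene Lyz2 at up to 9895 CPM. Mertk, also among the 8, was at 0.0852 to 2.60 CPM. The summed markers of T cells, B cells, neutrophils and fibroblasts stayed at or below 0.544 CPM in every library, and those of endothelial and epithelial cells, mostly Cdh5 or Pecam1 by library, at or below 1.64 CPM. In the absence of LPS the Sf3a1 mRNA itself was at 191 ± 22.2 CPM under control siRNA and at 28.9 ± 2.78 CPM under SF3a1 siRNA (mean ± SD over 3 libraries, as for all levels given so), which is 15.1% of the control level. In the presence of LPS it was at 167 ± 23.9 CPM and 34.0 ± 9.72 CPM, or 20.4%. In bulk RNA of this kind, fewer cells that make an mRNA and less of it per cell cannot be told apart.

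**Figure D1:**
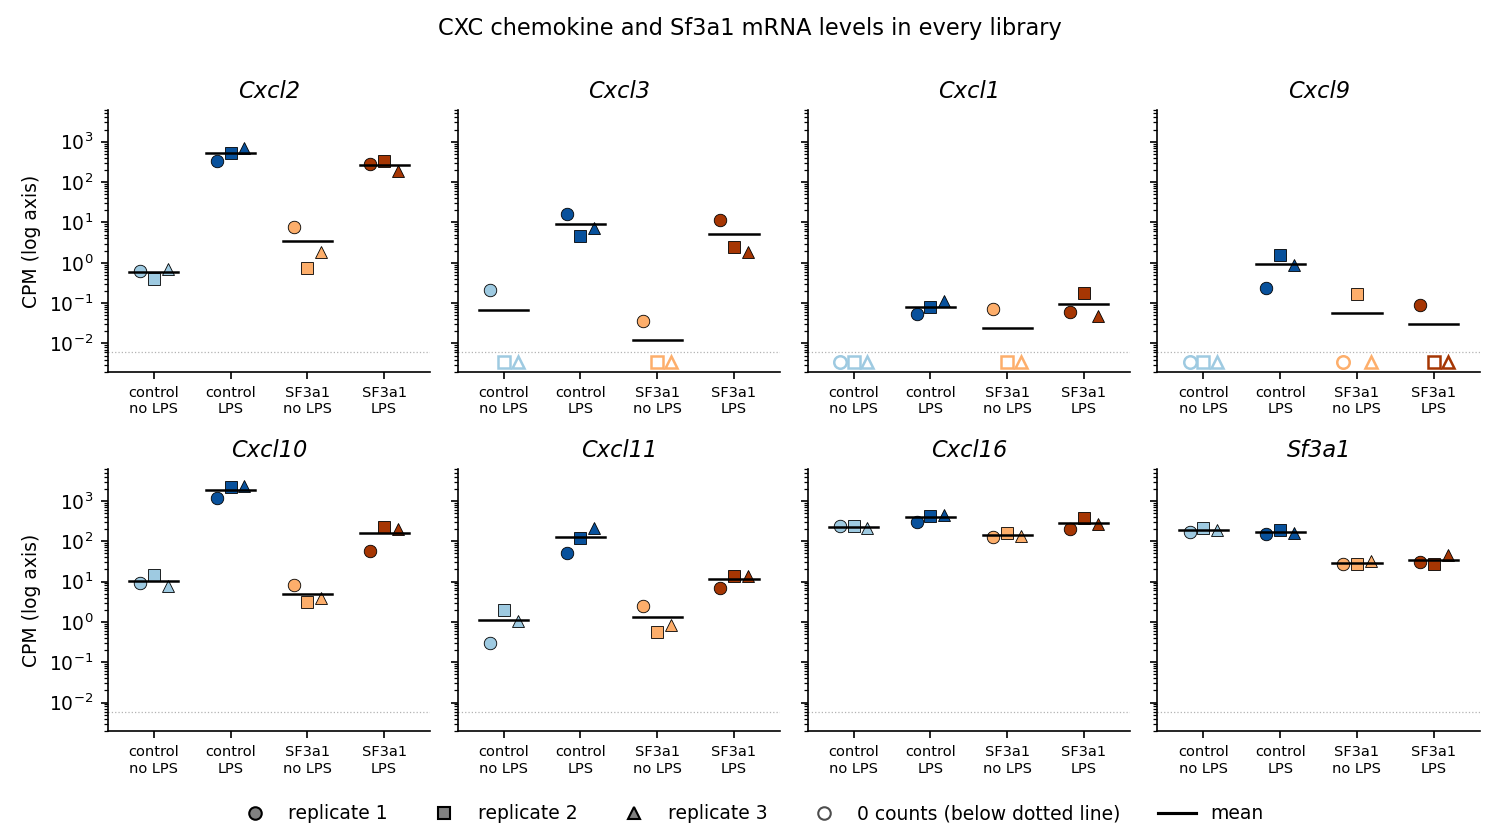
Each panel plots 1 gene in the 12 libraries, in TMM-scaled CPM on a log axis, with symbols for the replicate numbers, lines for group means and open symbols under the dotted line for libraries with 0 counts. Cxcl2, Cxcl3, Cxcl10 and Cxcl11 lie at or below 14.4 CPM in every library without LPS, while Cxcl16 lies above 128 CPM in every library.

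LPS raised the CXC chemokines that could be tested. Of the 7 genes, 5 passed edgeR's filter on low counts (Cxcl2, Cxcl3, Cxcl10, Cxcl11 and Cxcl16), and all 5 rose with control siRNA, where 13.8% of the 14983 genes tested rose, 18.3% fell and so 32.1% were called. A gene was called when its p from edgeR's quasi-likelihood test, adjusted by Benjamini-Hochberg over all genes tested, was under 0.1. With SF3a1 siRNA all 5 rose as well, where 6.60% of genes rose and 4.06% fell, 10.7% in all. Cxcl3 had at most 9 counts in a library without LPS and passed the filter through its libraries with LPS, so that it could be called as a rise alone and the counts of 5 are a description. Cxcl2, Cxcl10, Cxcl11 and Cxcl16 had counts in every library. Cxcl1 and Cxcl9 stayed under the filter and are described by their counts.

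The genes of Cxcl1, Cxcl2 and Cxcl3 lie in the same stretch of the plus strand of chromosome 5, at chr5:90786103-90789600 for Cxcl3, chr5:90891241-90893115 for Cxcl1 and chr5:90903871-90905938 for Cxcl2 (mm10), each with 4 exons. The proximal promoters of Cxcl2 and Cxcl3 are shown because all 3 genes share a stretch that matches the kappaB-like motif (GGG, any 3 bases, then TTCC), drawn here in capitals with every match on either strand. The sequences run 5′ to 3′ from 250 to 31 bases before the RefSeq start (GRCm38.p6, plus strand), at chr5:90903649-90903868 for Cxcl2 and chr5:90785851-90786070 for Cxcl3:
Cxcl2: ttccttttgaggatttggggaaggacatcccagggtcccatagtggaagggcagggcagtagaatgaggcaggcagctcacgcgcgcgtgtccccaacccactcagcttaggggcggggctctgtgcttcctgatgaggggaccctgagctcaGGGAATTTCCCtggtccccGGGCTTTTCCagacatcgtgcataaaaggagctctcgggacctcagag
Cxcl3: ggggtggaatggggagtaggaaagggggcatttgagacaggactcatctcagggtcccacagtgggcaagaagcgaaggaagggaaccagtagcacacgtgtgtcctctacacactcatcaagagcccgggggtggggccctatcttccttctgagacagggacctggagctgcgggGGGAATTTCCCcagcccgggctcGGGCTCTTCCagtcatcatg
The first run of capitals holds overlapping matches on both strands, and the same letters stand in the Cxcl1 promoter, 71 to 61 bases before its start. Of 32851 RefSeq promoters searched in the same window, 3.84% held the kappaB-like motif. Of the 7 genes 5 had an entry there, and 4 of them held it. A match is a description of the letters and not of binding.

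Cxcl2, or MIP-2, went from under 1 CPM to at least 334 CPM with LPS under control siRNA. With control siRNA it was at 0.642, 0.402 and 0.681 CPM in replicates 1, 2 and 3 without LPS and at 334, 538 and 697 CPM with LPS. With SF3a1 siRNA it was at 7.77, 0.725 and 1.86 CPM without LPS and at 273, 328 and 191 CPM with LPS. The libraries with LPS were far above those without under either siRNA, and the library of SF3a1 siRNA without LPS replicate 1 stood apart from the other 2 of its group. LPS raised Cxcl2 by a log2 fold change of 9.79 ± 0.78 (SE) with control siRNA (adjusted p = 1.48e-06) and 6.17 ± 0.65 with SF3a1 siRNA (adjusted p = 5.34e-05). Without the replicate that stood apart, the value with SF3a1 siRNA was 7.72.

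Cxcl3 also rose with LPS, to a far lower level. With control siRNA it had 9, 0 and 0 counts without LPS and 605, 59 and 132 counts with LPS, which is 15.9, 4.69 and 7.41 CPM. With SF3a1 siRNA it had 1, 0 and 0 counts without LPS and 369, 40 and 38 counts with LPS, or 11.2, 2.42 and 1.83 CPM. Replicate 1 gave the highest level with LPS under both siRNAs. Its counts summed over the group, scaled by the TMM library sizes as in all ratios of summed counts here, were 116 times higher with LPS with control siRNA (95% interval 60.6 to 254, counting error only), and the gene rose in edgeR's test with a log2 fold change of 6.59 and an adjusted p of 0.000321. The 9 counts all came from replicate 1, and without that library the group had 0 counts without LPS, so that the fitted value, 10.69, is no measured size. With SF3a1 siRNA the ratio was 374 with an interval of 66.7 to 14793, which rests on a lone count without LPS, and the adjusted p was 0.00217. That count came from SF3a1 siRNA without LPS replicate 1, the library that stood apart, and without it the group had 0 counts without LPS and the adjusted p was 0.0202.

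Cxcl1, or KC, a main neutrophil attractant of other mouse cells, was close to absent here. It had 5 counts over the 3 libraries of control siRNA with LPS and 6 over those of SF3a1 siRNA with LPS, against 0 and 2 without LPS. The 0 of 82812608 counted reads with control siRNA allows up to 0.0362 CPM (3 counts, before TMM scaling). Between the siRNAs with LPS the ratio was 1.17 with a 95% counting interval of 0.297 to 4.83.

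The Cxcr3 ligands lie together on the minus strand of chromosome 5, with Cxcl9 at chr5:92321347-92328079, Cxcl10 at chr5:92346638-92348889 and Cxcl11 at chr5:92359544-92365485. Cxcl10 and Cxcl11 overlap Art3 on the opposite strand, and Cxcl11 also Gm2673. Whether counting used the strand is not given in the sources used here, and Art3 was at 0.0303 to 0.786 CPM and Gm2673 at 0 to 0.272 CPM. The annotation classes Cxcl11 as a polymorphic pseudogene in the reference strain, with a protein-coding transcript beside it. The Cxcl10 promoter is shown because it held kappaB-like motifs and an ISRE-like motif (GAAA, any 2 bases, then GAAA), the kind of sequence bound by interferon-regulated factors, from 250 to 31 bases before the start at chr5:92348920-92349139 (minus strand, matches in capitals):
Cxcl10: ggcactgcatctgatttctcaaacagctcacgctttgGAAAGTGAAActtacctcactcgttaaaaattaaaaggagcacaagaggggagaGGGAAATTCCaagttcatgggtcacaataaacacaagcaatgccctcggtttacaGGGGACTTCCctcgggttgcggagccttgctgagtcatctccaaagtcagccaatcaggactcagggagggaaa
The ISRE-like match, GAAAGTGAAA, lies 213 to 204 bases before the start, and the kappaB-like matches lie 159 to 150 and 104 to 95 bases before it. The ISRE-like motif stood in 2.63% of all promoters searched and in no other of the 5 promoters at hand. Cxcl9 held neither of these motifs in its window, and a GAS-like motif, TTCNNNGAA, found in 6.27% of promoters on either strand, stood in none of the 5. The promoters of Cxcl11 and Cxcl16 were not analysed here.

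Cxcl10, or IP-10, was the most abundant of the 7 mRNAs after LPS with control siRNA. It was at 9.38, 14.4 and 7.62 CPM without LPS and at 1175, 2183 and 2350 CPM with LPS under control siRNA. Under SF3a1 siRNA it was at 7.98, 3.18 and 3.87 CPM without LPS and at 56.7, 220.3 and 196 CPM with LPS. The SF3a1 siRNA libraries with LPS lay far below every control siRNA library with LPS, yet above all libraries without LPS. LPS raised it by a log2 fold change of 7.51 ± 0.61 with control siRNA (adjusted p = 1.74e-06) and 4.94 ± 0.55 with SF3a1 siRNA (adjusted p = 8.53e-05). Without SF3a1 siRNA without LPS replicate 1 the latter was 5.49.

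Cxcl11, or I-TAC, also rose with LPS, from a lower level. Under control siRNA it was at 0.298, 1.97 and 1.02 CPM without LPS and at 50.8, 119 and 209 CPM with LPS. Under SF3a1 siRNA it was at 2.48, 0.557 and 0.818 CPM without LPS and at 7.05, 13.5 and 13.8 CPM with LPS. Again replicate 1 of SF3a1 siRNA without LPS was the highest of the libraries without LPS. LPS raised Cxcl11 by 6.95 ± 0.76 on the log2 scale with control siRNA (adjusted p = 2.24e-05) and by 3.03 ± 0.68 with SF3a1 siRNA (adjusted p = 0.0155). Without that replicate the value with SF3a1 siRNA was 4.06, and in libraries of 1 run 4.33. With control siRNA, leaving out 1 library gave values from 6.36 to 7.71.

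Cxcl9, or MIG, stayed rare. It had 9, 20 and 16 counts in the libraries of control siRNA with LPS, against 0 in each library without LPS, and was at least 15.3-fold higher by the lower end of the 95% counting interval. With SF3a1 siRNA it had 3 counts over 3 libraries with LPS, all in replicate 1, and 3 without LPS, all in replicate 2. The ratio of these was 0.836 with a 95% counting interval of 0.112 to 6.24.

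Cxcl16 differed from the others in being abundant at rest. Its gene lies at chr11:70453983-70459984 on the minus strand and overlaps Zmynd15, which was at 10.5 to 27.7 CPM. With control siRNA Cxcl16 was at 234, 239 and 215 CPM without LPS and at 306, 427 and 433 CPM with LPS. With SF3a1 siRNA it was at 129, 162 and 135 CPM without LPS and at 201, 367 and 264 CPM with LPS. LPS raised it by 0.76 ± 0.21 on the log2 scale with control siRNA (adjusted p = 0.0161) and by 0.96 ± 0.21 with SF3a1 siRNA (adjusted p = 0.0129), and the groups with and without LPS did not overlap under either siRNA.

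SF3a1 inhibition in the presence of LPS lowered Cxcl10, Cxcl11 and Cxcl16. These 3 of the 5 tested genes were called, all lower, where 20.4% of all genes tested were lower and 18.4% higher, 38.8% in all, and the median log2 fold change of the 5 was -0.99 beside -0.04 over all genes. Cxcl10 fell to 8.28% of its control level, a log2 fold change of -3.60 ± 0.51 (adjusted p = 0.000254), and Cxcl11 to 9.06%, a log2 fold change of -3.47 ± 0.62 (adjusted p = 0.0012). For both genes every SF3a1 siRNA library was below every control siRNA library. The ratios of SF3a1 to control siRNA were 0.0483, 0.101 and 0.0833 for Cxcl10 and 0.139, 0.113 and 0.066 for Cxcl11 in replicates 1, 2 and 3. In the libraries sequenced in 1 run, replicates 2 and 3, the log2 fold changes were -3.45 and -3.59. Cxcl9, with 45 counts against 3, had a ratio of 0.0648 with a 95% counting interval of 0.0129 to 0.202.

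The fall of Cxcl16 was small. Its log2 fold change was -0.49 ± 0.21 (adjusted p = 0.0951) and the groups overlapped. The call was lost, with adjusted p of 0.214 to 0.304, without any of control siRNA with LPS replicates 2 or 3 or SF3a1 siRNA with LPS replicates 1 or 3, and in the 6 libraries compared alone (adjusted p = 0.276). Blocking on replicate gave an adjusted p of 0.0137.

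Cxcl2 and Cxcl3 were lower with SF3a1 siRNA in each same-numbered pair of libraries with LPS without passing the test. Cxcl2 had a log2 fold change of -0.99 ± 0.51 (adjusted p = 0.17) with a 95% interval of -2.10 to 0.13, and every SF3a1 siRNA library lay below every control siRNA library. Cxcl3 had a log2 fold change of -0.85 ± 0.69 (adjusted p = 0.396) with an interval of -2.36 to 0.65, and the groups overlapped. Without SF3a1 siRNA with LPS replicate 1 it was at -2.15, a call (adjusted p = 0.0334), and without control siRNA with LPS replicate 1 at -0.21 (adjusted p = 0.856). Cxcl2 was called in the 6 libraries compared alone (adjusted p = 0.0532), without the filter (adjusted p = 0.000426) and, just under the threshold, without control siRNA with LPS replicate 1. The ratio of SF3a1 to control siRNA was 0.816, 0.61 and 0.275 for Cxcl2 and 0.702, 0.516 and 0.247 for Cxcl3 in replicates 1, 2 and 3. With the replicate block both genes were called, Cxcl2 at -1.02 (adjusted p = 0.0816) and Cxcl3 at -1.12 (adjusted p = 0.00977), so that 5 of 5 were lower, in a fit that called 7625 of all genes against 5818 without the block. Within the libraries of 1 run the values were -1.25 (adjusted p = 0.00391) and -1.53 (adjusted p = 0.00936).

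**Figure D2:**
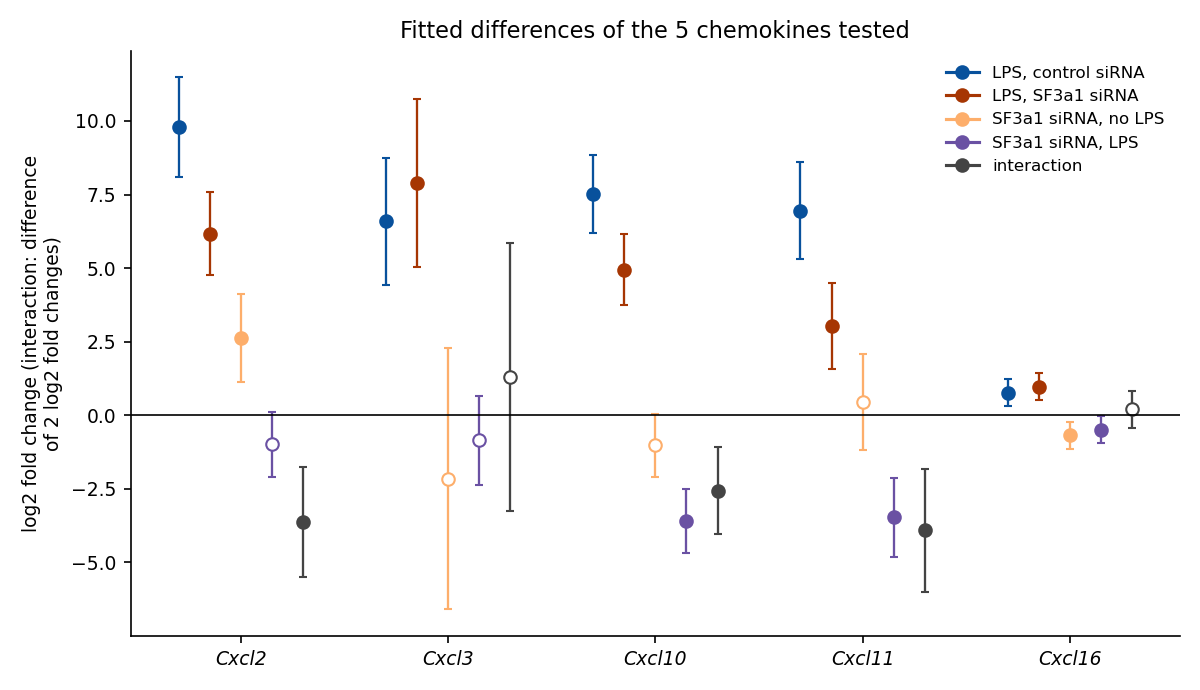
Points are fitted log2 fold changes with 95% intervals for the 5 genes tested, filled where called at an adjusted p of 0.1 and open where not, and the interaction is the LPS response with SF3a1 siRNA minus that with control siRNA. The SF3a1 effect with LPS is -3.60 for Cxcl10 and -3.47 for Cxcl11, against -0.99 for Cxcl2, -0.85 for Cxcl3 and -0.49 for Cxcl16.

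In the absence of LPS, SF3a1 inhibition was followed by a lower Cxcl16 and a higher Cxcl2. These were the calls among the 5 tested genes, where 13.7% of all genes tested were higher and 20.1% lower, 33.8% in all. Cxcl16 was at 62.0% of its control level, a log2 fold change of -0.69 ± 0.21 (adjusted p = 0.0276), and all 3 SF3a1 siRNA libraries were below all 3 controls. Without control siRNA replicate 1 or 2 its adjusted p was 0.107 or 0.126. Within the libraries of 1 run the log2 fold change was -0.61 (adjusted p = 0.0186).

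The higher Cxcl2 rested on a single library. The log2 fold change was 2.63 ± 0.69 (adjusted p = 0.0132), and 1.08 (adjusted p = 0.168) without SF3a1 siRNA replicate 1, where Cxcl2 was at 7.77 CPM. In that library 27.2% of reads matched no annotated gene feature, against 21.6 and 20.8% in the other replicates of its group. The LPS-inducible genes whose levels ran closest to Cxcl2 were also highest there among the libraries without LPS, with Il1b at 0.911 CPM against 0.167 and 0.372 in the other replicates and Acod1 at 38.1 against 13.9 and 16.9 CPM. These genes were picked for following Cxcl2 over the same 12 libraries, so their levels there are a description and no separate sign. The part of this library's make-up in the result was not tested.

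For Cxcl10, Cxcl11 and Cxcl3 no change passed the test without LPS. Cxcl10 had a log2 fold change of -1.03 ± 0.50 (adjusted p = 0.152) with a 95% interval of -2.11 to 0.05. It was called in the libraries of 1 run, at -1.65 (adjusted p = 0.00107), without SF3a1 siRNA replicate 1, at -1.57 (adjusted p = 0.0648), in the 6 libraries compared alone (adjusted p = 0.0756) and without the filter (adjusted p = 0.00031). Cxcl11 had 0.44 ± 0.75 with an interval of -1.19 to 2.07, and the sign turned without that library. Cxcl3 had 1 count against 9, a ratio of 0.169 with a counting interval of 0.00386 to 1.22.

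The fold response to LPS was smaller under SF3a1 siRNA for Cxcl2, Cxcl10 and Cxcl11. The interaction, the LPS response with SF3a1 siRNA minus that with control siRNA on the log2 scale, was called for these 3 of the 5, all lower, where 1.94% of genes tested were lower and 1.54% higher, 3.47% in all. It was -3.62 ± 0.86 for Cxcl2 (adjusted p = 0.0517), -2.57 ± 0.68 for Cxcl10 (adjusted p = 0.0827) and -3.91 ± 0.96 for Cxcl11 (adjusted p = 0.0584). For Cxcl3 it was 1.30 ± 2.09 with an interval of -3.24 to 5.84, and for Cxcl16 it was 0.20 ± 0.29 with an interval of -0.43 to 0.84. Within the libraries of 1 run the called values were -2.42, -1.80 and -2.45, with adjusted p of 0.0615, 0.0193 and 0.0551.

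The calls of the interaction depended on single libraries. With the replicate block the adjusted p was 0.0188 for Cxcl2, 0.0188 for Cxcl10 and 0.0103 for Cxcl11, and by DESeq2 0.01, 0.00313 and 0.0173. Without the block none of the 5 genes was called without any of control siRNA without LPS replicates 1 or 3, control siRNA with LPS replicate 3, SF3a1 siRNA without LPS replicate 1 or SF3a1 siRNA with LPS replicate 3, while the values of Cxcl2, Cxcl10 and Cxcl11 stayed below 0. Calls were also lost for Cxcl2 without control siRNA without LPS replicate 2 (adjusted p = 0.129), for Cxcl10 without control siRNA with LPS replicate 2 (0.153) or SF3a1 siRNA without LPS replicates 2 (0.101) or 3 (0.135), and for Cxcl11 without control siRNA with LPS replicate 2, with an adjusted p just above the threshold. Without SF3a1 siRNA replicate 1 of the cultures without LPS, Cxcl2 was at -2.07 (adjusted p = 0.133), Cxcl10 at -2.02 (adjusted p = 0.21) and Cxcl11 at -2.89 (adjusted p = 0.296).

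The make-up of the CXC chemokine mRNA pool differed between the groups. The summed level of the 7 genes was 241 ± 16.0 CPM with control siRNA and 152 ± 13.2 CPM with SF3a1 siRNA without LPS, and 2951 ± 949 CPM and 716 ± 196 CPM with LPS. Cxcl16 held 94.99 ± 1.34% of these counts with control siRNA without LPS, and with LPS Cxcl10 held 64.2 ± 2.21%, Cxcl2 17.7 ± 1.21% and Cxcl16 13.7 ± 2.34%. With SF3a1 siRNA and LPS the shares were 21.1 ± 9.77% for Cxcl10, 37.9 ± 10.8% for Cxcl2 and 38.5 ± 1.67% for Cxcl16. Every library of that group had a lower share of Cxcl10 and a higher share of Cxcl2 than any library of control siRNA with LPS. With 3 against 3 libraries an exact permutation p cannot fall below 0.1. Shares are parts of 1 sum, so a lower share of Cxcl10 raises the others. The level of Cxcl2 itself was 264 ± 68.8 CPM there against 523 ± 182 CPM with control siRNA and LPS.

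**Figure D3:**
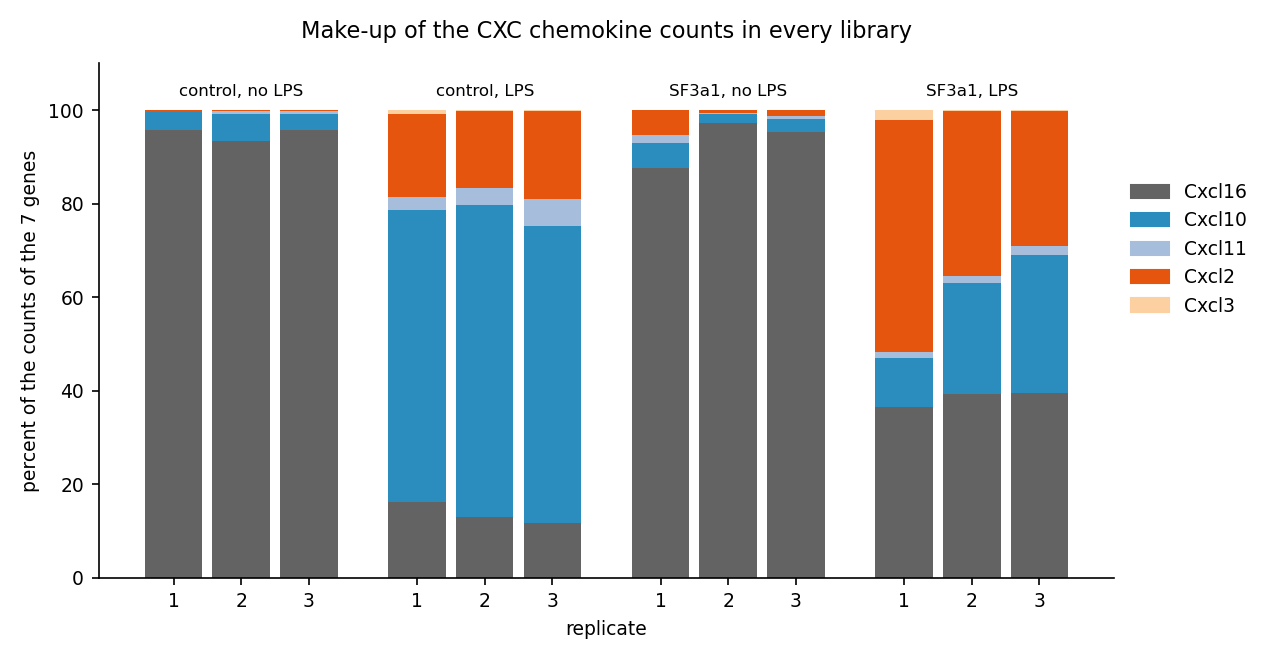
Bars give the percent of the counts of the 7 genes that each gene took in each of the 12 libraries, by group and replicate, with Cxcl1 and Cxcl9 too rare to be seen. Cxcl10 takes 62.4 to 66.7% with control siRNA and LPS and 10.3 to 29.4% with SF3a1 siRNA and LPS.

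Levels per transcript length gave the order of the genes within each group. In RPKM, CPM divided by the length in kilobases of the principal annotated transcript, the order with control siRNA and LPS was Cxcl10 at 1739, Cxcl2 at 472, Cxcl16 at 144, Cxcl11 at 79.8, Cxcl3 at 9.19, Cxcl9 at 0.314 and Cxcl1 at 0.0855. With SF3a1 siRNA and LPS it was Cxcl2 at 238, Cxcl10 at 144, Cxcl16 at 102.7, Cxcl11 at 7.23, Cxcl3 at 5.06, Cxcl1 at 0.101 and Cxcl9 at 0.0105. Over single libraries the ranges of Cxcl16 and Cxcl11 overlapped in the former group, as did those of Cxcl9 and Cxcl1, and the other neighbours lay apart. In the latter group the ranges of Cxcl2 and Cxcl10 overlapped, as did those of Cxcl10 and Cxcl16 and those of Cxcl11 and Cxcl3. Without LPS Cxcl16 led in both groups, at 84.9 and 52.6 RPKM, followed by Cxcl10 at 9.56 and 4.58 RPKM, which overlapped Cxcl2 with SF3a1 siRNA.

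Of the other CXC ligands 2 of 8 passed the filter, and with SF3a1 siRNA both were higher without LPS and 1 was higher with LPS, where 13.7 and 18.4% of all genes tested were higher. Cxcl14, a ligand made at rest by many tissues, did not pass the test for LPS under either siRNA. It was at 263 ± 66.6 CPM with control siRNA and 427 ± 42.3 CPM with SF3a1 siRNA without LPS, and at 246 ± 56.3 and 467 ± 83.2 CPM with LPS. SF3a1 inhibition raised it by 0.70 ± 0.22 on the log2 scale without LPS (adjusted p = 0.0333) and 0.92 ± 0.22 with LPS (adjusted p = 0.00731). Pf4, the platelet factor, was at 0.230 ± 0.0741 and 0.702 ± 0.503 CPM with control and SF3a1 siRNA without LPS (adjusted p = 0.0669). These groups overlapped, with SF3a1 siRNA replicate 3 at 0.223 CPM and control siRNA replicate 2 at 0.313 CPM. Pf4 was at or below 1.23 CPM in every library. Whether it would have passed the filter without its SF3a1 siRNA libraries without LPS was not tested. Its call and the count of 2 higher genes are thus a description.

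Of the 8 CXC receptor genes 4 passed the filter, and with LPS 3 were higher and 1 lower with SF3a1 siRNA, where 18.4% of all genes tested were higher and 20.4% lower. Cxcr4, the Cxcl12 receptor, was at 0.228 ± 0.144 CPM with control siRNA and 3.04 ± 0.324 CPM with SF3a1 siRNA, a log2 fold change of 3.79 ± 0.49 (adjusted p = 0.000158). Cxcr6, the Cxcl16 receptor, went with LPS from 0 to 50 counts over the 3 control siRNA libraries and from 5 to 202 counts over those of SF3a1 siRNA. Between the siRNAs with LPS its log2 fold change was 2.17 ± 0.59 (adjusted p = 0.017). Outside SF3a1 siRNA with LPS it was at or below 0.947 CPM in every library, against 2.36 to 3.95 CPM there, and it passed the filter through that group. It could thus be called there as higher alone, so that its call and the count of 3 are a description. Cxcr3, the receptor of Cxcl9 to Cxcl11, was at 2.21 ± 0.714 CPM with control siRNA and 4.70 ± 0.481 CPM with SF3a1 siRNA (log2 fold change 1.09 ± 0.32, adjusted p = 0.02). Cxcr5 was the lower gene, with 1.74 ± 0.393 against 0.405 ± 0.0608 CPM.

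Genes listed for the TRIF and interferon arm were mostly lower with SF3a1 siRNA and LPS. The list was chosen with earlier results of these data known, so its counts are a description. Any part of these genes in the levels of the Cxcr3 ligands was not tested. Of 18 genes 11 were lower, 2 higher and 5 not called, where 20.4% of all genes tested were lower and 18.4% higher. The median log2 fold change was -0.72 beside -0.04 over all genes. LPS with control siRNA had raised 12 of them and lowered 2 (13.8 and 18.3% of all genes), and SF3a1 siRNA without LPS raised 2 and lowered 8 (13.7 and 20.1% of all genes). Stat2, a component of the interferon-activated complex that binds ISRE sequences, was at 411 ± 34.9 CPM with control siRNA and 89.5 ± 16.5 CPM with SF3a1 siRNA (log2 fold change -2.20 ± 0.15, adjusted p = 5.19e-06). Irf8, an interferon-regulatory factor of the macrophage lineage, was at 169 ± 60.4 and 35.3 ± 12.9 CPM (-2.26 ± 0.33, adjusted p = 0.000309). Irf1, a factor induced by interferon and LPS, was at 208 ± 88.9 and 39.0 ± 7.66 CPM (-2.42 ± 0.33, adjusted p = 0.000189), and the kinase gene Ikbke was at 275 ± 50.9 and 70.8 ± 24.8 CPM (-1.96 ± 0.25, adjusted p = 0.000148). Ifnb1, the interferon beta gene, was named after its values were seen. It had 997 counts over the control siRNA libraries with LPS and 180 with SF3a1 siRNA. The ratio was 0.176 with a 95% counting interval of 0.149 to 0.206, which leaves out the spread between libraries. That spread was 4.92 to 27.5 CPM with control siRNA and 0.636 to 5.02 CPM with SF3a1 siRNA. In edgeR's test the log2 fold change was -2.67 ± 0.74 (adjusted p = 0.0186).

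Of the 23 genes between TLR4 and NF-kappaB, 6 were lower with SF3a1 siRNA and LPS, 4 higher and 13 not called, where 20.4% of all genes tested were lower and 18.4% higher, so that the counts were near those of all genes. The median was -0.27 beside -0.04 over all genes. LPS with control siRNA had raised 13 of them and lowered 2 (13.8 and 18.3% of all genes), and SF3a1 siRNA without LPS raised 6 and lowered 2 (13.7 and 20.1% of all genes). Nfkbiz, an inducible NF-kappaB cofactor, was at 249 ± 32.1 CPM with control siRNA and 60.7 ± 11.5 CPM with SF3a1 siRNA (log2 fold change -2.04 ± 0.17, adjusted p = 1.26e-05). Ikbkb, the IKK beta kinase, was at 108 ± 9.50 and 54.4 ± 5.85 CPM (-0.99 ± 0.14, adjusted p = 0.000246) and Irak2 at 198 ± 16.0 and 130 ± 9.11 CPM (-0.61 ± 0.17, adjusted p = 0.0147). Map3k7, the TAK1 kinase, was higher, by 0.46 ± 0.14 (adjusted p = 0.0211). The inhibitor gene Nfkbia was at 590 ± 66.2 and 534 ± 137.2 CPM, which was not called.

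**Figure D4:**
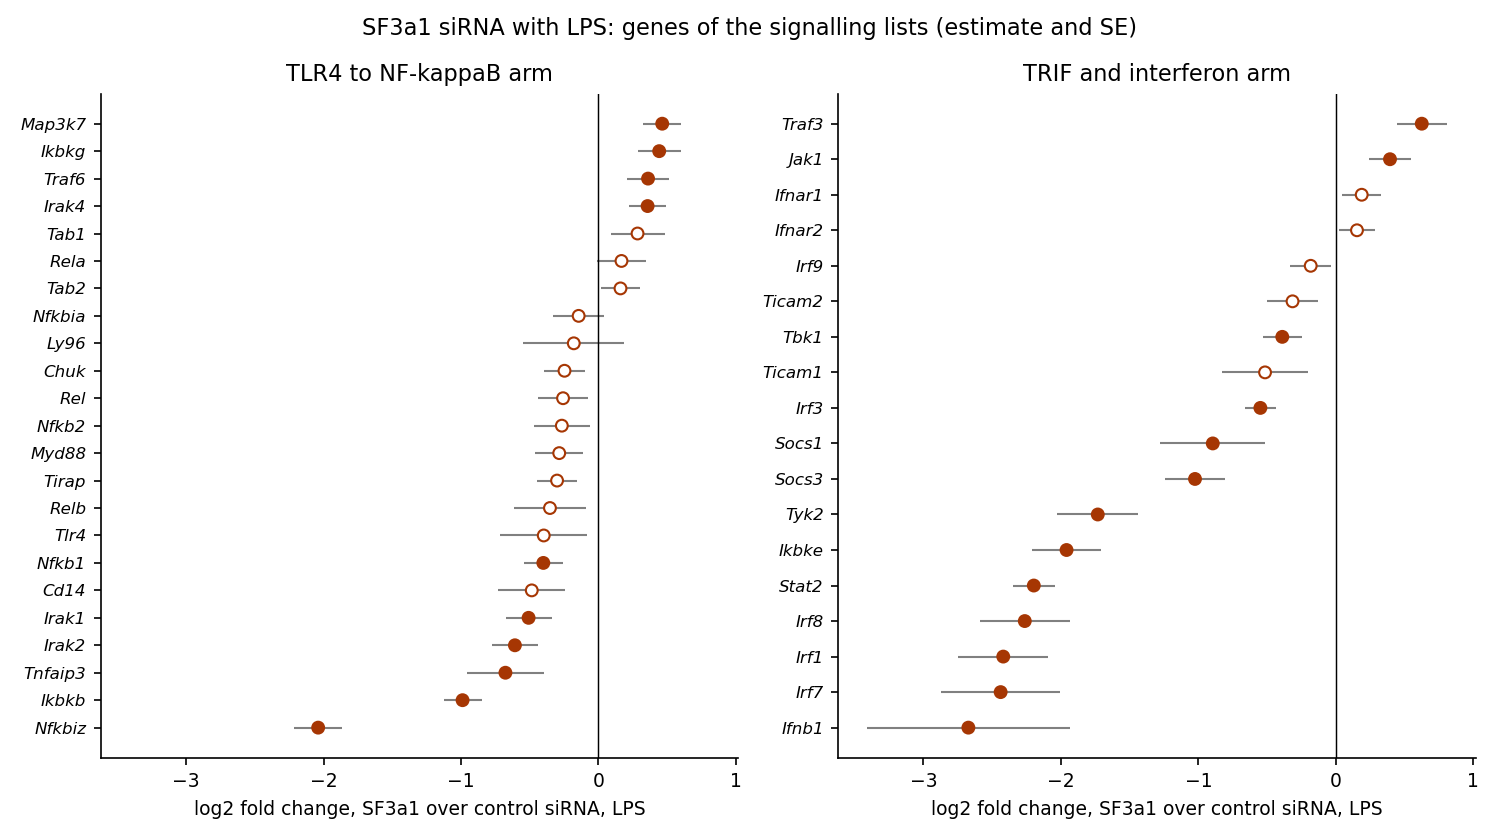
Points are log2 fold changes of SF3a1 over control siRNA with LPS, with SE, for the 23 genes from TLR4 to NF-kappaB and the 18 genes of the TRIF and interferon arm, filled where called at an adjusted p of 0.1. Ikbke, Stat2, Irf8 and Irf1 lie between -1.96 and -2.42, and Nfkbiz at -2.04 stands apart in its list.

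Regulators of chemokine mRNA decay and Cxcl16 shedding were listed as well. Of 10 regulators of chemokine mRNA decay, 2 were lower and 2 higher with SF3a1 siRNA and LPS, shares near the 20.4% and 18.4% of all genes tested. The lower ones were Arid5a, a stabilising factor, at -2.34 ± 0.36 (adjusted p = 0.000426) and Zc3h12a, the Regnase-1 endonuclease, at -0.64 ± 0.19 (adjusted p = 0.0202). The higher ones were Zfp36l2 at 1.55 ± 0.41 (adjusted p = 0.0131) and Zfp36l1 at 1.11 ± 0.41 (adjusted p = 0.0586), which encode relatives of tristetraprolin. Of the Cxcl16 sheddases, Adam17 was at 487 ± 42.3 CPM with control siRNA and 327 ± 32.7 CPM with SF3a1 siRNA (-0.58 ± 0.14, adjusted p = 0.00808), and Adam10 was at 112 ± 22.7 and 140 ± 24.3 CPM without a call.

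The genes whose levels ran closest to each chemokine over the 12 libraries were named by Pearson's r of log2 CPM, as a description over points that share the 4 groups. For Cxcl2 they were Acod1 (r = 0.992), Il1b (0.988) and Traf1 (0.988), and for Cxcl3 Saa3 (0.982), Lcn2 (0.979) and Oas1a (0.973). For Cxcl10 they were Ifit2 (0.994), Ikbke (0.993) and Mx1 (0.988), and for Cxcl11 Clec2d (0.983), Arhgef3 (0.978) and Gbp2b (0.978). Ifit2, Mx1 and Oas1a are interferon-stimulated antiviral genes, and Il1b encodes a cytokine. For Cxcl16 they were Dcakd, Med27 and Tagap, with r of 0.945 to 0.956. Among the chemokines Cxcl10 and Cxcl11 had the highest r, 0.977, and Cxcl3 and Cxcl16 the lowest, 0.658, with Cxcl2 and Cxcl10 at 0.907.

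Whether SF3a1 inhibition changed the splicing of these mRNAs was asked at the level of exon bins, the pieces into which annotated exons are divided for counting. Bins were at hand for 11 libraries, without control siRNA with LPS replicate 3. Of the bins of the 5 tested genes, 34 passed the filter and 0 were called in edgeR's diffSpliceDGE in any of the 4 comparisons, where 0.0801% of 153624 bins were called for LPS with control siRNA, 0.0254% for LPS with SF3a1 siRNA, 0.626% for the siRNAs compared in the absence of LPS and 0.492% in its presence. At an unadjusted p under 0.05 there was 1 bin, in SF3a1 siRNA with LPS, and limma's diffSplice called 0. These counts do not show that bin usage stayed the same. An intron that no annotated transcript keeps has no bin and could not be seen. In simulated counts for SF3a1 siRNA without LPS, 10% of genes with a bin changed 2-fold were found, and 78% of those with a bin changed 4-fold.

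That bin was bin 3 of Cxcl16, at chr11:70454558-70455158, which an annotated intron spans within the last exon of the long transcript. It held 1.58 ± 0.0776% of the Cxcl16 bin counts with control siRNA and 2.37 ± 0.704% with SF3a1 siRNA without LPS (n = 3 each), and 0.824 ± 0.329% (n = 2) and 1.77 ± 0.157% (n = 3) with LPS. Its usage relative to the other bins of the gene differed by 1.08 on the log2 scale with LPS (adjusted p = 0.944). With the replicate block it was 1.16 (adjusted p = 0.0831), which was a call. Bin 10, at chr11:70458828-70459028, kept by an annotated intron-retaining transcript, held 1.67 ± 0.472% with control siRNA and 1.25 ± 0.251% with SF3a1 siRNA, both with LPS.

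**Figure D5:**
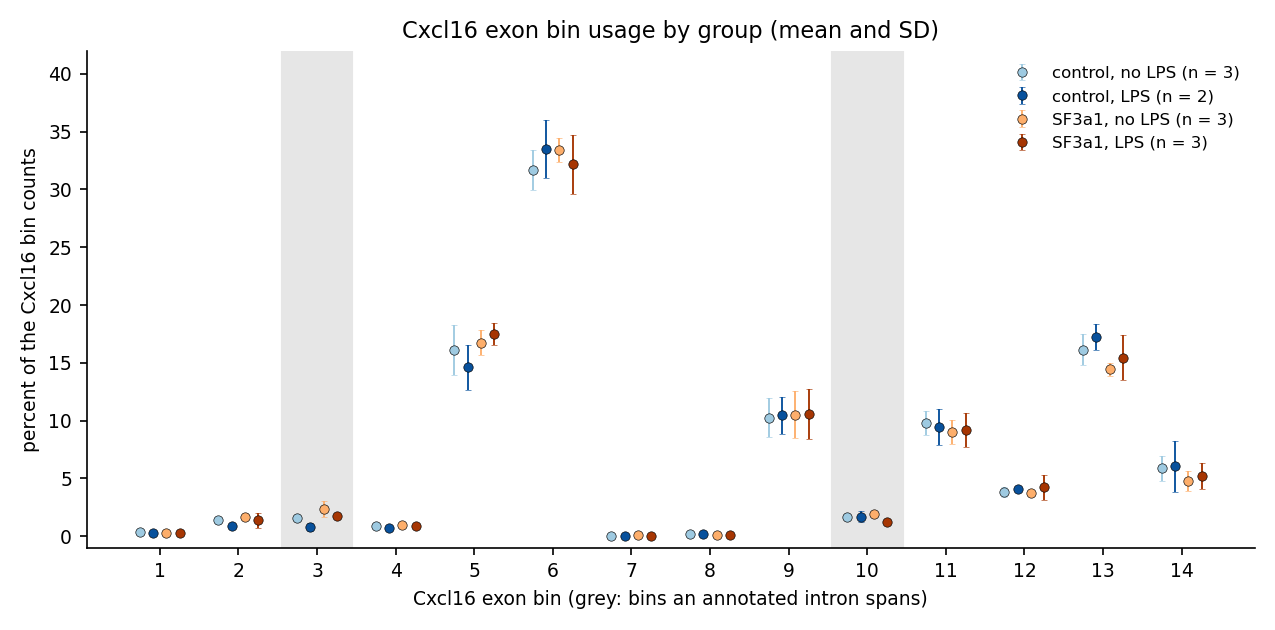
Points are the percent of Cxcl16 bin counts in each of its 14 exon bins, as mean and SD over the libraries of each group (n = 2 for control siRNA with LPS and 3 for the others), with grey bands on bins that an annotated intron spans. Bin 3 holds 0.824% with control siRNA and LPS and 1.77% with SF3a1 siRNA and LPS, and no bin is called in the fit without the replicate block.

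For the other chemokines the shares with LPS were as follows. Bin 4 of Cxcl2, at its 3′ end, held 48.0 ± 1.88% of its counts with control siRNA (n = 2) and 51.04 ± 3.17% with SF3a1 siRNA (n = 3), and bin 1 of Cxcl10 held 51.3 ± 3.77% and 56.0 ± 1.06%. Bin 2 of Cxcl11, at chr5:92359547-92360806, held 45.3 ± 4.93% and 47.4 ± 0.741%.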

How the data were processed

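Polyadenylated RNA of the 12 cultures was read on an Ion Proton sequencer. The authors aligned reads of at least 30 nt to the mouse genome (mm10) with GSNAP, kept those that mapped uniquely, and tallied them with HTSeq over Ensembl gene models and over exon bins for DEXSeq. The deposited values are raw counts with no normalization. Reads that matched no gene feature, 17.8 to 27.2% per library, were left out of library sizes. Exon bins of control siRNA with LPS replicate 3 were not analysed here.

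Counts were scaled by TMM and tested with edgeR 4.0.16 (filterByExpr, glmQLFit and glmQLFTest) in 1 fit over the 12 libraries and 14983 genes, with 4 comparisons and their interaction, at a Benjamini-Hochberg adjusted p of 0.1. All adjusted p of genes come from this fit unless another setting is named. Exon bins were tested with diffSpliceDGE. Scripts were tested on simulated counts. Alternatives were RLE size factors, no filter, DESeq2 1.42.0, limma 3.58.1 (diffSplice), a replicate block, only the 6 libraries compared, libraries of 1 run, and leaving out each library. R 4.3.3 and Python 3.11.15 were used. Counting intervals and limits at 0 counts (3 counts) cover counting error only.

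The 3 samples of each group are labelled biological replicates, and no 2 libraries of a group were alike within sampling noise (chi-square per degree of freedom 8.85 to 118). Samples with the same replicate number deviated together, with a correlation of deviations of 0.144 to 0.659 in 18 same-numbered pairs and of -0.591 to 0.417 (median -0.36) in 36 other pairs. By this check the numbers pair the samples. The fit itself has no replicate term, and for the chemokines and their bins the fit with the block is given where it changes a call. Calls of the genes in the other lists are given without the block. The chemokines and gene lists were chosen with earlier results of these data known. In the TRIF and interferon list, 1 gene is not reported here. Beside the 7 genes, up to 4 genes with the smallest p per list and comparison, and the 3 genes most correlated with each tested chemokine (mean of at least 5 CPM), were named.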

Additional observations from a re-analysis of the deposited data

Results flagged for a closer look

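For 3 of the CXC chemokines the LPS response differed between the siRNAs in the test of the interaction, given as the log2 response with SF3a1 siRNA minus that with control siRNA. It was -3.62 for Cxcl2, -2.57 for Cxcl10 and -3.91 for Cxcl11. Without SF3a1 siRNA without LPS replicate 1 none of the 3 was called, at -2.07, -2.02 and -2.89 (adjusted p = 0.133, 0.21 and 0.296). Nor was any of them called without control siRNA without LPS replicate 1, at -3.78, -2.55 and -3.43 (adjusted p = 0.111, 0.156 and 0.104). Of all genes tested 3.47% were called, 1.94% with a lower and 1.54% with a higher response. Of the 23 genes between TLR4 and NF-kappaB 3 were called, Irak2 at -0.85, Nfkbia at -1.21 and Nfkbiz at -3.29. Of the 18 genes of the TRIF and interferon arm 5 were called, Irf7 at -2.30, Stat2 at -1.40, Irf1 at -1.94 and Socs3 at -1.74, while the adaptor gene Ticam2 went the other way, at 1.06. Of 10 regulators of mRNA decay the endonuclease gene Zc3h12a was called, at -1.31, and of 8 macrophage markers the Fc receptor gene Fcgr1, at -2.83. For these listed genes the fits without single libraries were not examined.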

How the results depend on the processing

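Of 400 values of single chemokines or their bins under alternative settings, 346 kept their direction and their side of the threshold, 29 lost the call, 13 gained it and 12 turned in sign or went to 0. All 5 rises with LPS under either siRNA, and the falls of Cxcl10 and Cxcl11 with SF3a1 siRNA and LPS, kept their calls in every alternative run. With the replicate block 3115 genes were called for LPS with SF3a1 siRNA (1598 without it) and 1756 for the interaction (520 without it), and for SF3a1 siRNA with LPS 5 chemokines were called with the block or without the filter and 6 in libraries of 1 run, against 3, while 7625, 5445 and 6700 of all genes were called there, against 5818. The interaction called 930 genes without the filter, 921 by DESeq2 and 1012 in libraries of 1 run. Genes with a called exon bin numbered 49, 11, 653 and 534 in the 4 comparisons and 129, 35, 1217 and 1102 with the replicate block, which called 1 chemokine bin in SF3a1 siRNA with LPS.

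Leaving out 1 library gave 3985 to 4583 called genes and 5 to 6 chemokines for LPS with control siRNA, 1050 to 1509 and 5 for LPS with SF3a1 siRNA, 3881 to 4810 and 1 to 2 for SF3a1 siRNA without LPS, 4744 to 5993 and 2 to 5 for it with LPS, and 273 to 711 and 0 to 3 for the interaction. Genes with a called bin were then 23 to 60, 7 to 11, 382 to 517 and 83 to 603. The values that turned in sign or went to 0 were not called. In libraries of 1 run Cxcl3 without LPS was at 0, Cxcl11 at -1.14 and the interaction of Cxcl3 at -1.53, and limma put bin 10 of Cxcl16 at 0.15 for LPS with control siRNA. Without 1 library the ranges were -0.019 to 0.38 for Sf3a1 with LPS under SF3a1 siRNA, -4.22 to 2.03 for Cxcl3 and -0.58 to 1.27 for Cxcl11 without LPS, -2.85 to 3.37 and -0.052 to 0.39 for the interactions of Cxcl3 and Cxcl16, and -0.33 to 0.25 for bin 10. The cause of these shifts was not tested. Depth limits Cxcl1, Cxcl9 and, without LPS, Cxcl3, which rest on few or no counts. Without the filter Cxcl9 was tested, with an adjusted p of 0.000779 for SF3a1 siRNA with LPS.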
